A study of Drosophila melanogaster with 3 samples.

Results

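The mitochondrial ribosomal protein genes of Drosophila melanogaster are the 73 protein-coding genes whose symbol starts with mRpL (47 genes, large subunit) or mRpS (26 genes, small subunit), out of 13945 protein-coding genes in the dm6 annotation. They were examined in a chromatin immunoprecipitation and sequencing experiment on whole embryos of mixed sex, 0 to 16 h old. The embryos came from 1 transgenic line in which green fluorescent protein (GFP) is fused to the C terminus of CG4424, a zinc finger protein, and an anti-GFP antibody was used. All 3 biological replicates carry this transgene and form 1 group, so there is no condition to compare and no test was made between groups. Whole embryos mix all cell types of these stages, so that the signal at a gene cannot be assigned to a tissue. A summit is the position of highest signal within a called region. A gene is called occupied here when a summit of the optimal set, the 6420 regions that the authors kept for reproducibility, lies within 500 bp of any annotated transcript start.

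Mitochondrial ribosomes translate the few proteins encoded in mitochondrial DNA, which are core subunits of the respiratory chain and of ATP synthase. Their RNAs are made in the mitochondrion, but their proteins are encoded by nuclear genes, made in the cytosol and imported. Many nuclear genes on different chromosomes have to be expressed for 1 mitochondrial ribosome to be built. Many fly genes, these included, sit head to head with a gene on the other strand, and both then share the short stretch of DNA between their starts.

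CG4424-GFP occupied 38 of the 73 genes, or 52.1% (exact 95% interval 40.0 to 63.9%), against 24.9% of all protein-coding genes. The genes for proteins of the cytosolic ribosome were occupied more often, at 72 of 93 (77.4%, 67.6 to 85.4%), so a share above the background is not particular to the mitochondrial ones. A summit near several starts counts for each of those genes here. With each summit given to 1 gene only, that with the nearest protein-coding start, 20 of 73 were occupied (27.4%, 17.6 to 39.1%), against 18.1% of all protein-coding genes, and mRpS10, mRpS23, mRpS2 and mRpL24 were among the 18 no longer counted. In the list called on the pooled reads without that reproducibility threshold, 54 of 73 genes (74.0%) had a summit within 500 bp, against 50.5% of all protein-coding genes. Taking the 6420 strongest regions of each replicate, the number of genes with a summit was 42 in replicate 1, 40 in replicate 2 and 33 in replicate 3, a mean of 52.5% ± 6.47 (SD, n = 3). Protein-coding genes as a whole reached 25.8%, 25.6% and 23.6% in the same lists, so every replicate lay above its own background and replicate 3 was lowest on both counts. In the full replicate lists, which also hold background regions, 57, 61 and 52 genes had a summit, against 45.2%, 52.5% and 49.7% of all protein-coding genes. Read depth is unknown here, and signal values are those of the authors' region caller on a scale that is not stated, so they are compared within a list and between lists only by rank.

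The sequences below show what lies under the strongest summits and, for contrast, at starts without one. They were read from the RefSeq genome of dm6 on the strand of the ribosomal protein gene, and capitals mark runs of 6 or more A or T. The first 3 are promoter windows of occupied genes, 250 bases before to 50 bases after the start of the canonical transcript, which is base 251. In mRpS10 (chr3R:15229452-15229751, plus strand) the summit is base 79, and another annotated start lies nearer to it than the canonical one. In mRpS2 (chr2L:4850370-4850669, minus strand) the summit is base 84 and the divergent start of Mon1 is base 29. In mRpL24 (chr2L:4945312-4945611, minus strand) the summit is base 126 and the divergent start of betaggt-I is base 33.
mRpS10: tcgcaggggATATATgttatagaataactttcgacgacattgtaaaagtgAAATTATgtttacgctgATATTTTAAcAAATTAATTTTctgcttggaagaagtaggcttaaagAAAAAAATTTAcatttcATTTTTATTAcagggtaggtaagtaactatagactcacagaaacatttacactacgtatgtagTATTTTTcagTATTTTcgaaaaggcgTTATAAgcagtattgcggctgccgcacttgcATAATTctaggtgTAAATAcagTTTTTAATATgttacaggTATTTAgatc
mRpS2: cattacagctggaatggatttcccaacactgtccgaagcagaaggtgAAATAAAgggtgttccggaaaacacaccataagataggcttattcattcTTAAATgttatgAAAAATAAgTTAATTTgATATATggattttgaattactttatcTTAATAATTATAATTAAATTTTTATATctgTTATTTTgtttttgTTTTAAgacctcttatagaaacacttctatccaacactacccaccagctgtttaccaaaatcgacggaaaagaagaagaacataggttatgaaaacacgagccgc
mRpL24: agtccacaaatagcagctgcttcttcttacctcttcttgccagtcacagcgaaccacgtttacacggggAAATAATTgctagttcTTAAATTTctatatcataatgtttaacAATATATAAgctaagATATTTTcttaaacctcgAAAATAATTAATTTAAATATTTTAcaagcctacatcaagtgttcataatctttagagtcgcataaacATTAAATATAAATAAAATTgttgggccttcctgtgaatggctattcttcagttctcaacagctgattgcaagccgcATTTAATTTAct
In mRpS23 (chr2L:13835409-13835509, minus strand) and mRpL20 (chr3L:13018107-13018207, minus strand) the summit lay beyond the promoter window, and the 101 bases around it are given, with the summit at base 51.
mRpS23: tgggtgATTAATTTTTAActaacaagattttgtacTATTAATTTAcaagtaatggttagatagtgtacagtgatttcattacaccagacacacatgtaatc
mRpL20: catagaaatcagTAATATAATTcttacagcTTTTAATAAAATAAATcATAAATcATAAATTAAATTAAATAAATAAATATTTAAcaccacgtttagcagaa
The last pair are promoter windows of genes without a summit in any list, mRpL10 (chr2L:203529-203828, plus strand) and mRpL14 (chrX:2344600-2344899, minus strand).
mRpL10: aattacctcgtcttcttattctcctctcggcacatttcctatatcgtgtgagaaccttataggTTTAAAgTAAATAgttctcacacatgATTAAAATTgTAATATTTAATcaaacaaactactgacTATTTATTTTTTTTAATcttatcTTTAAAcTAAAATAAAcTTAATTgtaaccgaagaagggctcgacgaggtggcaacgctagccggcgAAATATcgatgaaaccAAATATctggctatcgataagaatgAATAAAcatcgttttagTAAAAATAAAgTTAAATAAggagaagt
mRpL14: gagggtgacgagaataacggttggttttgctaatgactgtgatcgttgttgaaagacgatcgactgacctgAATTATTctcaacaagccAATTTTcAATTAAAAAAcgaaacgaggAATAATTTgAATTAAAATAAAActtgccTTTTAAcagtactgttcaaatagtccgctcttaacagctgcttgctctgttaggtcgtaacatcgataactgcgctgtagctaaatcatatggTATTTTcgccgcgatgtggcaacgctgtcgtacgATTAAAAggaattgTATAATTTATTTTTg
A+T made up 69.0% of the mRpS10 window, 68.0% of that of mRpS2, 67.7% of that of mRpL24, 68.7% of that of mRpL10 and 62.7% of that of mRpL14. Around the mRpS23 and mRpL20 summits it made up 71.3% and 82.2%. The longest run of A and T had 11 bases in the mRpS10 window, 27 in that of mRpS2, 24 in that of mRpL24, 12 at the mRpS23 summit and 30 at the mRpL20 summit. In the unoccupied mRpL10 and mRpL14 promoter windows it had 17 and 14 bases, more than in that of mRpS10 and fewer than in those of mRpS2 and mRpL24. The promoter window of mRpS23, not printed, had a longest run of 21 bases, so the shorter summit windows are not set against promoter windows. A high A+T content was thus present at occupied and at unoccupied genes.

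Most occupied genes shared their upstream DNA with a divergent neighbour, defined here as another gene on the opposite strand with a start between 100 bp downstream and 1000 bp upstream of the gene's start. Of the 73 mitochondrial ribosomal protein genes 58 (79.5%, 68.4 to 88.0%) had one, against 5560 of 13945 protein-coding genes (39.9%) and 59 of 93 cytosolic ribosomal protein genes (63.4%). Among the 38 occupied genes 35 (92.1%) had one, and among the 35 others 23 (65.7%) did. All 58 neighbours were protein-coding. Set the other way, 35 of the 58 genes with a divergent neighbour were occupied (60.3%, 46.6 to 73.0%), where 41.6% of all protein-coding genes with one were. Without a divergent neighbour 3 of 15 were occupied (20%, 4.33 to 48.1%), where 13.8% of all such protein-coding genes were. These 3 genes were mRpL12, mRpL13 and mRpL19. Of the cytosolic ribosomal protein genes 52 of 59 with a divergent neighbour (88.1%) and 20 of 34 without one (58.8%) were occupied.

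At 32 of the 35 occupied pairs (91.4%, 76.9 to 98.2%) the summit lay between the starts of both genes, and the replicate summits did so at 31, 32 and 32 pairs. Over all occupied protein-coding genes with a divergent neighbour the share was 70.5%, and over cytosolic ribosomal protein genes it was 35 of 52 (67.3%). The summit was nearer to the ribosomal protein gene's own start at 15 pairs (42.9%, 26.3 to 60.6%) and nearer to the neighbour's start at 20. In the replicates the own start was nearer at 13, 15 and 13 pairs. By the same count the own start was nearer at 57.4% of all occupied protein-coding genes with a neighbour and at 46 of 52 cytosolic ribosomal protein genes (88.5%). At 6 pairs the summit's distances to both starts differed by at most 20 bp, and at 15 pairs by at most 50 bp. The 6 were mRpS21 with Droj2, mRpL39 with Prosbeta2, mRpS11 with Ns1, mRpL53 with AGO1, mRpS10 with Art3 and mRpS24 with Apc2. The median distance of the summit from the midpoint of a pair was 46 bp (0.5 to 278.5 bp). Since a summit between close starts counts for both genes, 33 of the 35 neighbours were occupied as well, and the exceptions were CG8079 beside mRpL41 and CG4440 beside mRpL4, whose starts are 762 and 793 bp away. Beside the 23 unoccupied genes 4 neighbours were occupied, among them FoxK beside mRpL2, if beside mRpL22 and nmdyn-D6 beside mRpS25. Neither count of occupied neighbours was made over all protein-coding genes, so they are not read as traits of this group.

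**Figure D1:**
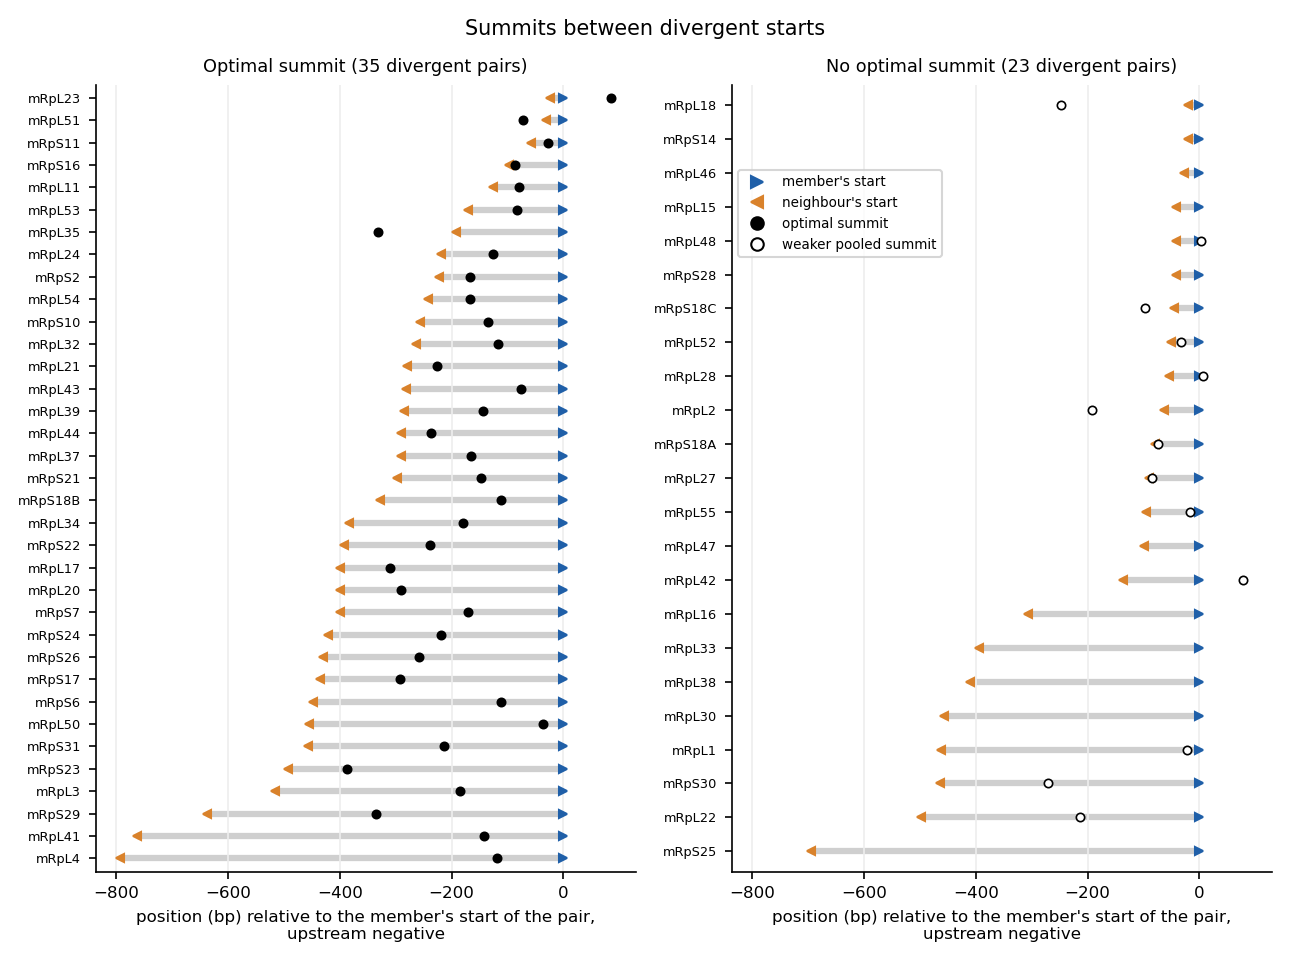
Each line is a mitochondrial ribosomal protein gene and its divergent neighbour, with positions in bp relative to the member's start of the closest pair of starts (blue) and upstream negative; the neighbour's start is orange, the optimal summit a filled circle and a weaker summit of the pooled list an open circle. At 32 of 35 occupied pairs the summit lies between the starts, and the outlying ones are mRpL23, mRpL51 and mRpL35.

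Relative to the nearest start of the gene itself, with upstream negative, the summits of the 38 occupied genes had a median position of -146 bp (-387 to 60 bp). The replicate medians were -154, -146 and -161.5 bp, an SD of 7.75 bp (n = 3). Upstream summits made up 37 of 38, and the exception was mRpL23. By the annotation 34 of the summits were intergenic. Another 3 lay in a 5' untranslated region, of mRpL23, of Uba4 beside mRpL51 and of Mitofilin beside mRpL35, and 1 in an intron of AGO1 beside mRpL53. All occupied protein-coding genes had a median of -139 bp with 89.5% upstream, and the cytosolic ribosomal protein genes one of -38 bp with 81.9% upstream. The cytosolic genes therefore had their summits closer to the start, as well as nearer to the own start than to the neighbour's.

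The strongest summits stood well apart from the rest. Of the 38 occupied genes 4 had a summit among the strongest 100 regions, 6 among the strongest 642 and 20 among the strongest 3210. Over all 3469 occupied protein-coding genes these shares were 2.42%, 15.7% and 59.8%, and none of 72 occupied cytosolic ribosomal protein genes was among the strongest 100. The median signal of the 38 genes was 352.6 (198.0 to 4293.2) at a median rank of 2814.5, while all occupied protein-coding genes had a median of 374.3 at rank 2569 and the cytosolic genes one of 475.9 at rank 1769.5. In other words, 4 very strong summits stood above a group of middling ones. The 12 strongest are given in full, with each position on dm6 and ranks in the order of replicates 1, 2 and 3.

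The strongest was mRpS10, a small subunit protein with a counterpart in bacterial ribosomes, with a signal of 4293.2 and rank 11 in the optimal set. Its ranks were 10, 14 and 10, and its replicate signals 1081.0, 1897.8 and 1338.6. The summit at 15229530 on 3R lay at -135 bp from its own start and -122 bp from that of Art3, which encodes an arginine methyltransferase and starts 257 bp away. The replicate summits spanned 3 bp, so position and rank barely moved between replicates. Next came mRpL41, of the large subunit, with a signal of 3729.5 at rank 17 and replicate ranks of 15, 16 and 18. Its summit at 15217758 on 2R was at -141 bp from the own start and -621 bp from that of CG8079. mRpS23 followed with 3235.8 at rank 24 and replicate ranks of 19, 24 and 25. Here the summit, at 13835459 on 2L, was at -387 bp from the own start and only -105 bp from that of CenG1A, a GTPase-activating protein gene. mRpL23 had a signal of 2561.5 at rank 41 and replicate ranks of 34, 46 and 44. Its summit at 2373618 on 3L was 60 bp downstream of the nearest own start, and the start of CG9004 was only 24 bp from the closest mRpL23 start. In these 4 genes the replicate summits spanned 3 to 8 bp.

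A pair of genes followed at a step down. mRpS2 had a signal of 1178.3 at rank 304, with replicate ranks of 400, 204 and 419, and its summit at 4850586 on 2L was at -167 bp from the own start and -55 bp from that of Mon1, which acts in endosome maturation. mRpL24 had a signal of 1167.5 at rank 308, with replicate ranks of 307, 309 and 359, and its summit at 4945486 on 2L was at -125 bp from the own start and -93 bp from that of betaggt-I, a protein prenylation enzyme subunit. Both intergenic stretches are short, 222 and 218 bp, and are printed above in full between the starts. The other 6 of the 12 had signals of 600.5 down to 468.8.

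mRpL20 had rank 1183 (1557, 1061 and 1224), with its summit at 13018157 on 3L, -290 bp from its start and -109 bp from that of Icmt, a methyltransferase of prenylated proteins. mRpL34 had a signal of 587.1 and rank 1240 (874, 1606 and 1129), at 16098769 on 2R, -179 bp from its start and -205 bp from that of Dg, the dystroglycan gene. mRpL37 had 529.2 and rank 1488 (1469, 1170 and 2111), at 10784258 on 3R and -166 bp from its start. The divergent starts are 399 bp apart at mRpL20 and 384 bp apart at mRpL34. mRpL4, with 524.8 and rank 1505 (1494, 1744 and 1568), had its summit at 16329250 on 2L, -118 bp from its start and -675 bp from that of CG4440. mRpL32 had 512.1 and rank 1558 (2030, 1289 and 1621), at 31252755 on 3R, -117 bp from its start and -147 bp from that of qless, which is needed for coenzyme Q synthesis. mRpS26 had 468.8 and rank 1812 (2215, 1755 and 1624), at 18106321 on 3L, -258 bp from its start and -172 bp from that of CG13698, and was 1 of 4 genes with 2 optimal summits, beside mRpS22, mRpL17 and mRpL35.

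The other 26 occupied genes had signals of 198.0 to 448.8, and in order of signal the next were mRpS7 (beside Cdk1), mRpS6 (Cip4), mRpS22 (CG5003), mRpL39 (the proteasome subunit gene Prosbeta2), mRpL21 (rept, an ATPase of chromatin remodelling), mRpL17 (Tudor-SN), mRpS18B (Kua) and mRpS31 (hzg). Then came mRpL44 (Snr1, a subunit of the Brahma remodelling complex), mRpL43 (CG30183), mRpL54 (CG15653), mRpL51 (Uba4), mRpL19, mRpL35 (Mitofilin, which shapes the inner mitochondrial membrane), mRpS11 (Ns1) and mRpS21 (Droj2). The weakest were mRpS29 (rad50), mRpS24 (Apc2), mRpL13, mRpL50 (mei-P22), mRpL12, mRpL53 (AGO1), mRpS16 (cg), mRpL11 (HtrA2, a mitochondrial protease gene), mRpL3 (Graf) and mRpS17 (Nop60B). The neighbours thus covered the cell cycle, protein turnover, chromatin and RNA silencing as well as mitochondrial functions. All 38 genes had a summit within 500 bp in each full replicate list. Among the 6420 strongest of each replicate, 32 had one in all 3, 5 in 2 and mRpS17 in none. Since the optimal set was made from these replicates, its genes are likely to recur in their lists. These counts were not made over all occupied protein-coding genes, so they are not read as traits of this group.

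Replicate summits of one gene spanned a median of 38 bp, up to 237 bp, and 23 of 38 genes were within 50 bp. The widest spans were at mRpL35 (237 bp), mRpL19 (152 bp) and mRpL11 (139 bp). mRpL35 had a signal of 271.2 at rank 3981 (3305, 3993 and 4863), with the summit at 22023196 on 3R, -331 bp from its own start and -122 bp from the nearest start of Mitofilin. It has 2 optimal summits, and the replicate summits lay 34, 203 and 0 bp from this stronger one. The replicate 2 summit and its rank may thus belong to another site. mRpL19, with no divergent neighbour, had 281.7 at rank 3789 (4364, 3254 and 3924), with the summit at 8674015 on 3R, -94 bp from its start. mRpL11 had 215.9 at rank 5338 (6247, 3648 and 8668), with the summit at 14511758 on 3R, -80 bp from its start and -46 bp from that of HtrA2. All of them were outside the strongest 3210 regions of the optimal set, and in the 4 strongest genes the span was 8 bp or less.

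**Figure D2:**
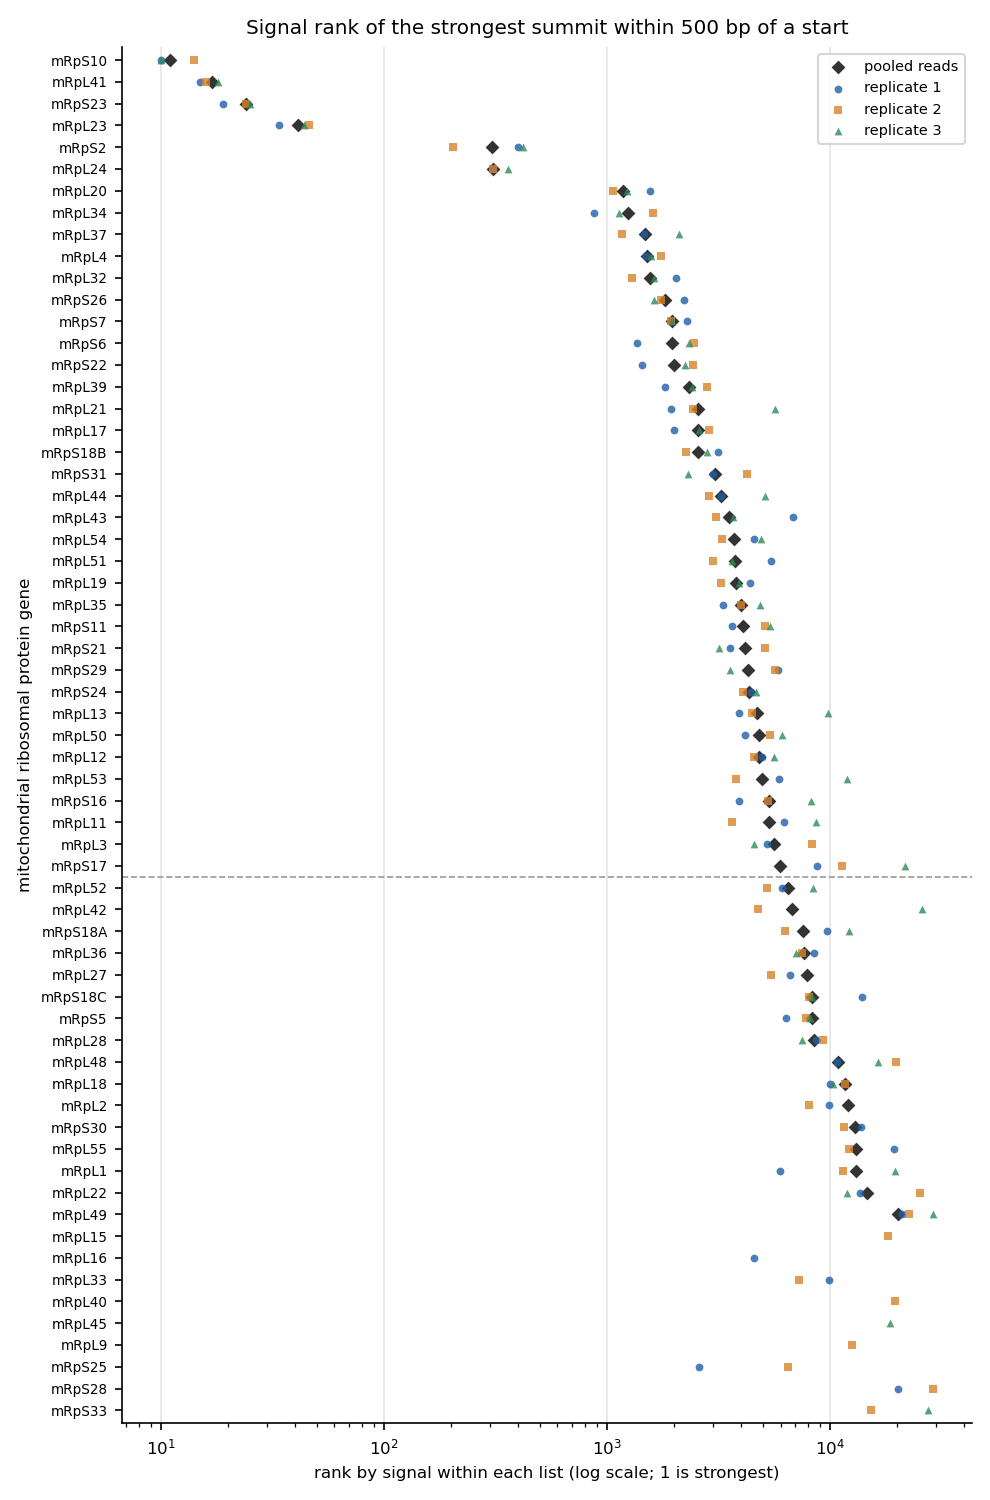
Rank by signal (log axis, 1 is strongest) of the strongest summit within 500 bp of a start in the pooled list (black), and of a summit in replicates 1 (blue), 2 (orange) and 3 (green), for the 38 occupied genes above the dashed line and the 25 others with a summit in any list below it. Replicate points show the summit nearest to the optimal one at occupied genes and the strongest within 500 bp at the others. The 4 genes ranked 11 to 41 keep ranks between 10 and 46 in all replicates.

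Of the 35 unoccupied genes 16 had a weaker summit in the pooled list, at ranks of 6474 to 20094, and 19 had none. For comparison, of all 13945 protein-coding genes 3469 had an optimal summit and 7045 a pooled one within 500 bp. The 8 highest in rank had signals of 184.7 down to 147.2 at ranks of 6474 to 8477, where the optimal set ends at 6420 regions and a signal of 186.2. mRpL52 (signal 184.7, rank 6474, replicate ranks 6078, 5244 and 8377) had its summit at -33 bp from its start and -17 bp from that of CG12107. mRpL42 (178.4, rank 6739) had its summit at -55 bp from its nearest start and -214 bp from that of PIG-N, with no summit in replicate 1 and ranks of 4768 and 25753 in replicates 2 and 3. mRpS18A (162.4, rank 7574, replicate ranks 9695, 6311 and 12164) had its summit at -74 bp and at -6 bp from CG31460. These 3 genes and mRpL27, mRpS18C and mRpL28 have divergent starts 45 to 136 bp away.

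mRpL36 (161.3, rank 7646, replicate ranks 8475, 7470 and 7041) and mRpS5 (149.5, rank 8319) have no divergent neighbour, and their strongest pooled summits lay downstream, at 320 and 428 bp. The mRpS5 ranks of 7774 and 8122 in replicates 2 and 3 belong to summits at 24537817 and 24537770, near the pooled one at 24537791. Its rank of 6324 in replicate 1 belongs to a separate summit at 24537177, upstream of the gene. Another pooled summit, not the strongest, lay 60 bp from an mRpS5 start. mRpL27 (156.5, rank 7901) had its summit at -84 bp and at -7 bp from CG15435, with ranks of 6643 and 5435 in replicates 1 and 2 and no summit in replicate 3. mRpS18C (149.8, rank 8293, replicate ranks 13902, 8044 and 8277) had its summit at -97 bp, 52 bp downstream of the start of CG15535. mRpL28 (147.2, rank 8477, replicate ranks 8626, 9349 and 7484) had its summit 6 bp downstream of its start and -61 bp from that of its divergent neighbour. The other 8 were mRpL48, mRpL18, mRpL2, mRpS30, mRpL55, mRpL1, mRpL22 and mRpL49, at ranks of 10890 to 20094. Whether a gene such as mRpL52 counts as occupied thus rests on the authors' threshold, with mRpS17 just inside it at 198.0 and mRpL52 just outside at 184.7.

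Of the 19 genes with no pooled summit, 9 had one in at least 1 replicate list, namely mRpL9, mRpL15, mRpL16, mRpL33, mRpL40, mRpL45, mRpS25, mRpS28 and mRpS33. mRpL16 reached rank 4576 in replicate 1 and was in neither other list. mRpS25 reached rank 2595 in replicate 1 and 6506 in replicate 2 but was not in replicate 3, and its nearest optimal summit was 503 bp from its start. The remaining 10, mRpL10, mRpL14, mRpL30, mRpL38, mRpL46, mRpL47, mRpS9, mRpS14, mRpS34 and mRpS35, had no summit within 500 bp in any list. Divergent neighbours were present at 5 of these 10. Among the 12 unoccupied genes without a divergent neighbour 9 had no pooled summit. Neither of these counts was made over all protein-coding genes, so they are not read as traits of this group.

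The distance between divergent starts had a median of 297 bp (24 to 793 bp) at the 35 occupied and 91 bp (20 to 695 bp) at the 23 unoccupied genes. Over all protein-coding genes with a divergent neighbour the medians were 290 and 300 bp. In classes of distance chosen after the values were seen, 4 of 18 genes with starts under 100 bp apart were occupied (22.2%, 6.41 to 47.6%), against 36.6% of all protein-coding genes in that class. The 4 were mRpL23, mRpL51, mRpS11 and mRpS16. In the strongest regions of each replicate 5, 7 and 3 of the 18 had a summit, against 36.7%, 38.8% and 33.1%, so that replicate 2 was at its background. At 100 to under 200 bp 3 of 4 were occupied, against 33.0%. At 200 to under 500 bp 24 of 31 were occupied (77.4%, 58.9 to 90.4%), against 53.6%, and at 500 to 1000 bp 4 of 5, against 28.8%. Of the 7 cytosolic ribosomal protein genes with starts under 100 bp apart 6 were occupied. In the wider classes, in the same order, 8 of 10, 21 of 22 and 17 of 20 cytosolic genes were occupied. High shares at these wider distances were thus not particular to the mitochondrial genes.

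**Figure D3:**
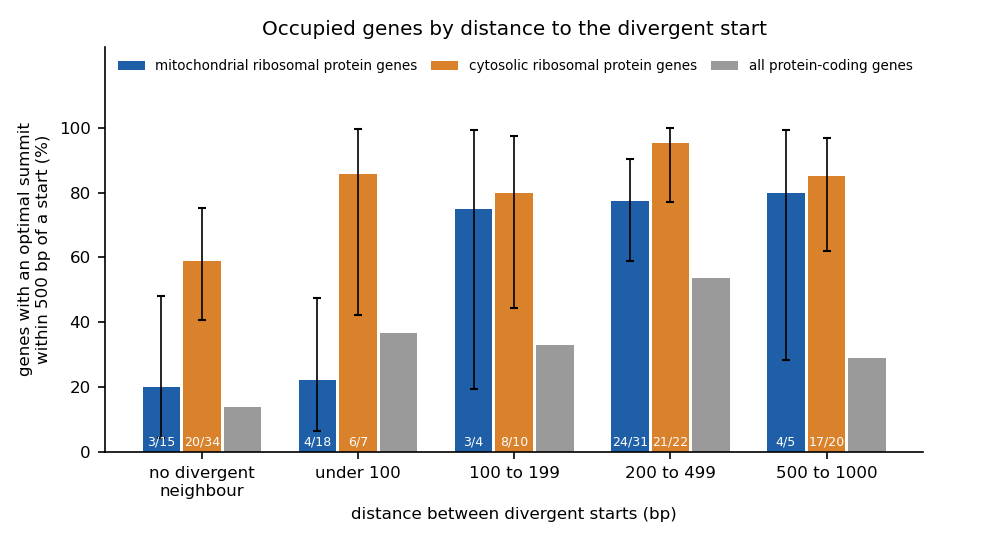
Bars give the percent of genes with an optimal summit within 500 bp of a start by the distance between divergent starts in bp, for mitochondrial (blue) and cytosolic (orange) ribosomal protein genes with exact 95% binomial intervals and counts, and for all protein-coding genes (grey). Among the mitochondrial genes 4 of 18 with starts under 100 bp apart and 24 of 31 with starts 200 to under 500 bp apart were occupied.

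Occupied genes were spread over the autosomal arms, with 8 of 12 on 2L, 8 of 12 on 2R, 10 of 17 on 3L and 11 of 21 on 3R, or 37 of 62 in all (59.7%, 46.4 to 71.9%, against 25.2%). On the X chromosome 1 of 11 was occupied (9.09%, 0.23 to 41.3%), against 23.0% of all protein-coding genes on X, and this was mRpL3 at rank 5632. Leaving out replicate 1 or replicate 3 took mRpL3 out as well, so that 0 of 11 remained, and leaving out replicate 2 did not. This split was noticed in the data. Of the 11 genes 8 have divergent starts 200 to 1000 bp away, the range in which most autosomal genes were occupied. Of these 8 mRpL3 alone was occupied (12.5%, 0.316 to 52.7%), against 35.4% of such protein-coding genes on X, which the interval includes. Another of the 8, mRpS25, has its nearest optimal summit 503 bp from its start, just outside the window. With a window of 1000 bp it counted as well, and 2 of 11 on X were occupied. On the autosomes 27 of 28 genes with starts 200 to 1000 bp apart were occupied (96.4%, 81.7 to 99.9%), against 46.3%, and the exception was mRpL1. Autosomal cytosolic ribosomal protein genes in this range were occupied at 28 of 32 (87.5%, 71 to 96.5%), so a high share there is not particular to the mitochondrial ones. Cytosolic ribosomal protein genes on X were occupied at 15 of 15. In the strongest regions of replicates 1, 2 and 3, X genes of the mitochondrial ribosome with a summit numbered 3, 0 and 1 of 11, against 25.0%, 22.9% and 21.3%, so the low share was seen in replicates 2 and 3 and not in replicate 1.

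By subunit 23 of 47 large subunit genes (48.9%, 34.1 to 63.9%) and 15 of 26 small subunit genes (57.7%, 36.9 to 76.6%) were occupied, and these intervals overlap widely. As a rough split by number alone, proteins numbered up to 36 in the large subunit and up to 21 in the small subunit were counted as having a counterpart in bacterial ribosomes. Those with higher numbers were counted as having none. The rule was not checked protein by protein and puts some proteins, such as mRpS24, mRpL47 and mRpL55, in the wrong class. Of the 42 genes with a counterpart by number 23 were occupied (54.8%, 38.7 to 70.2%), and of the 31 without one by number 15 were (48.4%, 30.2 to 66.9%). The 4 strongest genes fall on both sides of this line, mRpS10 and mRpL23 with a counterpart by number and mRpL41 and mRpS23 without. The intervals of this split overlap as well.

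Of the other genes of mitochondrial gene expression and import 18 of 63 were occupied (28.6%, against 24.9% of all protein-coding genes). The lists were chosen with results of these data known and get no test. RNA processing and decay stood highest at 5 of 9 genes (55.6%, 21.2 to 86.3%), led by PNPase, a polynucleotide phosphorylase gene, at a signal of 3305.5 and rank 22, and SLIRP2, an RNA-binding protein gene, at 2470.1 and rank 47. Replicate ranks were 18, 20 and 22 for PNPase and 43, 52 and 49 for SLIRP2. Transcription and upkeep of mitochondrial DNA had 5 of 11 (45.5%, 16.7 to 76.6%), led by mtSSB, the single-stranded DNA-binding protein gene, at 706.9 and rank 866, and mTerf5, a termination factor family gene, at 288.7 and rank 3684. Import genes named Tim or Tom had 3 of 15 (20%), led by Tom7 at 653.6 and Tim10 at 326.6. Translation factors had 2 of 9 (22.2%), mEFTu1 at 238.0 and mEFTu2 at 222.0, both elongation factor Tu genes. Mitochondrial aminoacyl-tRNA synthetases, which charge transfer RNAs, had 2 of 16 (12.5%), CysRS-m at 312.6 and AspRS-m at 191.3. Of 3 genes listed as ribosomal proteins under other names, Rlb1 was occupied at 374.3 and tko and bonsai were not. Rlb1 was listed by name only, and whether it encodes a mitochondrial ribosomal protein was not checked. The shares of synthetases, translation factors and import genes were thus under the background of 24.9%, with intervals that include it.

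Under the summits of the ribosomal protein genes the DNA was rich in A and T, a feature looked at after the sequences were seen. In the 101 bp around the summit A+T made up a median of 68.8% (39.6 to 82.2%), against 50% and 49.0% in windows of the same length centred 500 bp to either side, and it was above both flanks at 32 of 38 genes. Around the summits of replicates 1, 2 and 3 the medians were 67.8%, 70.3% and 70.3%. The whole optimal set had a median of 68.3% and optimal summits within 500 bp of a start one of 67.3%. The count above both flanks was not made for other optimal summits. Around optimal summits within 500 bp of a start mean A+T also fell, from 66.4% at the summit to 53.9% and 54.5% at 500 bp to either side. Around the summits of the ribosomal protein genes it fell from 65.5% to 49.0% and 49.1%. The lowest values were 39.6% at mRpS16 and 42.6% at mRpL53, and the highest was 82.2% at mRpL20. The richest 101 bp window centred within 500 bp of a start held a median of 80.7% A+T (67.3 to 89.1%) at occupied and 78.2% (66.3 to 87.1%) at unoccupied genes, with ranges that overlap almost wholly, against 80.2% and 77.2% over all protein-coding genes.

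**Figure D4:**
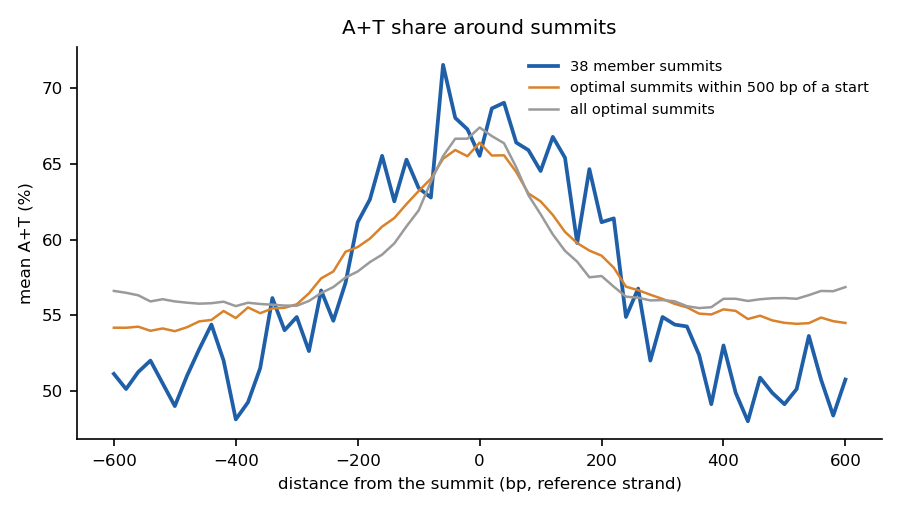
Mean A+T in percent against the distance from the summit in bp on the reference strand, for the 38 summits at mitochondrial ribosomal protein genes (blue), for optimal summits within 500 bp of a start (orange) and for all optimal summits (grey). All profiles are highest near the summit, where the median over 101 bp is 68.8% for the ribosomal protein genes and 68.3% for all optimal summits.

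Known promoter motifs were searched on both strands of the promoter windows. TATCGATA, bound by DREF and BEAF-32, was in 11 of 38 occupied windows (28.9%), 4 of 35 unoccupied ones (11.4%) and 8.94% of all protein-coding windows. The occupied genes with it were mRpL3, mRpL4, mRpL12, mRpL17, mRpL19, mRpL20, mRpL32, mRpL39, mRpS18B, mRpS23 and mRpS29. At the summits themselves it was in 1 of 38 windows of 101 bp (2.63%, at mRpL12), against 1.96% of all optimal summits. The motif thus mostly lay outside the 101 bp around the summit. Promoter windows are longer, at 300 bp, so counts in the 2 kinds of window are not alike. TATAAA, the core of the TATA box, was in 22 occupied windows (57.9%), 12 unoccupied ones (34.3%) and 45.3% of all. At the summits TATAAA was in 8 windows (21.1%), against 22.8% of the optimal set. GAGAG was in 6 occupied (15.8%) and 6 unoccupied windows (17.1%), against 30.2%. AGATAA, the GATA factor motif, was in 9 occupied (23.7%) and 8 unoccupied windows (22.9%), against 18.6%. GGTCACAC, the core of the M1BP motif, was in 3 occupied and 5 unoccupied windows, against 7.54%. The E-box CACGTG was in 2 and 3 windows, against 4.26%, and CANCCCTA, GCGCATGC and GCCATCTT were each in 1 occupied window, against 3.48%, 1.06% and 0.839%. GGTGGCGC and CCGGAAGT had no match in these windows, against 0.71% and 0.373%, shares too low for the lack of a match to be informative. TATAAA holds A and T only, and the promoter windows had a median A+T of 66.8% at occupied genes, 63.7% at unoccupied genes and 62.0% over all protein-coding genes. The part of base composition in the motif counts was not tested. Motifs were not counted apart in the windows of occupied protein-coding genes. Whether a share such as that of TATCGATA differs from theirs is therefore not known.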

How the data were processed

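Chromatin immunoprecipitation with an anti-GFP antibody was done on 3 biological replicates, each with 1 technical replicate, and DNA was sonicated to 200 to 800 bp, per the labels. Per the notes deposited with the samples, the authors called regions against a control alignment and kept for the optimal set those past a threshold on the irreproducible discovery rate. Each deposited region has a signal value and a summit. The scale of the signal, the aligner and the caller are not given. The lists hold 22198, 30000 and 29796 regions for replicates 1, 2 and 3, 29056 for the pooled reads and 6420 in the optimal set. The list of replicate 2 ends at a round number. Replicates were named by their number in the labels.

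Summits and regions were compared with all transcript starts of the Ensembl release 115 annotation of dm6, and positions are counted from 1. Sequence was read from the RefSeq genome of the same assembly. The 6420 strongest regions of each replicate list gave the spread between replicates. Since the authors made the optimal set from these replicates, their counts are not an independent check of it. Leaving out a replicate kept the optimal regions that the strongest regions of both others overlap by at least 1 bp. At occupied genes the replicate value is that of the summit nearest to the optimal one. At unoccupied genes it is that of the strongest summit within 500 bp of a start, which can lie apart from the pooled one. Shares carry exact (Clopper-Pearson) 95% intervals, which cover counting error only and treat genes as independent. Cytosolic ribosomal protein genes are protein-coding symbols RpL, RpS or RpLP followed by a digit, and sta, 93 in all, so some duplicate copies are included.

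The members and lists were chosen with earlier results of these data known. Each member is named, and the neighbour of 1 member is not reported here. Full values go to the 12 occupied members of highest signal, up to 8 unoccupied members by pooled rank and the 3 with the widest replicate spans, the 2 strongest occupied genes stand for each other list, and sequences were taken from the 6 strongest members off chromosome arm 2R, of which 5 are printed, and from 2 members without a pooled summit. Of the names in the other lists 19 did not match the annotation and were not analysed here, among them every listed assembly factor. Alternatives were other windows, thresholds, annotations, starts and overlaps, and leaving out each replicate. Work was done in Python 3.11.15 (pandas 2.3.3, numpy 2.4.6, scipy 1.17.1, plots by matplotlib 3.10.9), tested on simulated data and checked against bedtools 2.31.1.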

Additional observations from a re-analysis of the deposited data

How the results depend on the processing

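The number of occupied genes, 38, ranged from 32 to 41 with windows of 250 bp (34 genes) or 1000 bp (41 genes), with a replicate left out (32 to 36), with all 3 replicates required and with the RefSeq annotation. With only the strongest 3210 optimal regions it was 20 of 73 (27.4%), against 14.9% of protein-coding genes. It was also 20 (27.4%) when each summit counted only for the nearest protein-coding start, against 18.1%, which gave the summits of 18 genes to another gene and dropped mRpS10, mRpS23, mRpS2 and mRpL24 among others. At 250 bp mRpL20, mRpS17, mRpS23 and mRpS29 were lost, and the median summit position moved from -146 to -117.5 bp. At 1000 bp mRpL27, mRpL47 and mRpS25 were gained. Searching the 101 bp at the summit in place of the promoter window left TATCGATA at 1 gene in place of 11, and TATAAA at 8 in place of 22. The summit window differs from the promoter window in both length and place, and the part of each in these counts was not tested. Counts of divergent neighbours, of summits between starts, and of summits nearer to the own start, and the A+T share, stayed within 1.5 times or 1 SD under the alternatives run for them. Depth is unknown, so a gene without a summit is one not detected in these lists. No paired analysis was possible because the replicates form 1 group.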
